A study of Mus musculus with 48 samples.

Results

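The data cover 4 mouse loci that the array names by something other than a gene symbol. Of the names, 3 are genome intervals of mm9, chr10:92547995-92556102_F, chr10:116814196-116920696_R and chr17:32035750-32056000_R, and the last, AK035950, is a cDNA clone. They were chosen by name, and the names had been picked for large genotype or diet differences in these same livers, so the values of those contrasts are given below as a description with no test. The 4 names are held by 5 probes, out of 37074 gene names and 56605 probes on the array, and all 5 were among the 33323 probes bright enough to test. The array carries 4058 other gene names of the interval kind.

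The study asked how the nuclear receptor PPARα in hepatocytes, and in the whole body, shapes the liver of mice fed a high fat diet. Livers came from 48 male mice aged 20 weeks, 8 per group, kept at thermoneutrality, and RNA of each liver was hybridised to 1 array in 1 colour. Wild-type mice (WT) were bought from a breeder and acclimated before the experiment. Pparα hep-/- mice carried albumin-Cre on 1 allele and floxed Pparα on both, so that the gene is deleted where the albumin promoter is active, and Pparα -/- mice lacked the gene in every cell. Both mutant lines were bred in the authors' own facility, and therefore the origin of the mice and their genotype cannot be told apart. Each genotype received a control diet (CTRL) or a high fat diet (HFD, 60% fat), for 12 weeks by the sample labels, whereas the methods give a shorter time.

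Much of the genome between genes is transcribed at a low level. Some of these transcripts are long intergenic noncoding RNAs, which are spliced and polyadenylated like messenger RNAs but carry no long reading frame, and many of them are made in few tissues. Interval probes of this kind were designed to read such stretches on either strand. The suffix F stood for the plus strand and R for the minus strand at all 4358 interval probes with a position. For AK035950 the files give only a RIKEN clone from neonatal cerebellum of no known class. What any of the 4 transcripts does is not known from the files.

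The 60-base sequences that were read are shown first, because the array measured these stretches and not whole transcripts. Capitals mark the poly(A) signal hexamer AATAAA, which was searched on the printed strand together with ATTAAA.
chr10:92547995-92556102_F: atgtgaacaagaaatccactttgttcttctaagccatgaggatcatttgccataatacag
chr10:116814196-116920696_R, first probe: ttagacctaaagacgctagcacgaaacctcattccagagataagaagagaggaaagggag
chr10:116814196-116920696_R, second probe: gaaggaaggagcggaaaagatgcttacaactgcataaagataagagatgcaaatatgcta
chr17:32035750-32056000_R: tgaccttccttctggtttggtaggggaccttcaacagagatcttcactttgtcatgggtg
AK035950: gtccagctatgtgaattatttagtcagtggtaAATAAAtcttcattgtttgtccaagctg

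The probe of the first interval lies at chr10:92554637-92554696 on the plus strand, within a stretch of 8.11 kb. The probes of the second lie on the minus strand at chr10:116846943-116847002 and, near the lower end of the 107 kb stretch, at chr10:116814529-116814588. The third is read at chr17:32044984-32045043 on the minus strand, in a stretch of 20.3 kb. AK035950 is read at chr15:53169920-53169979, also on the minus strand. All positions are those of mm9 in the array files, and no annotation of that build was used here to place them in exons, introns or UTRs. None of the 5 sequences shared a run of 20 bases with any other of the 56605 probes on either strand, nor with the 32851 RefSeq promoter windows (GRCm38.p6) that were searched. The hexamer AATAAA was found in the AK035950 probe alone among the 5, starting at its base 33, and 9.77% of all probes on the array hold it. ATTAAA was in none of the 5 and in 3.86% of all probes. The share of G and C was 35.0% to 48.3%, against a median of 41.7% on the array.

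The tissue and the genotypes were examined first. The 5 hepatocyte markers (Alb, Apoa1, Ttr, Serpina1a and Cyp2e1) were well above background on all 48 arrays. The receptor gene itself, Ppara, differed from WT on CTRL by -0.65 ± 0.10 (log2, standard error, adjusted p = 1.10e-06, limma) in Pparα -/- and by -0.42 ± 0.10 (adjusted p = 0.000887, limma) in Pparα hep-/- mice. Whether the probe lies in the deleted part is not given in the sources used here, so these values are no check of the labels. On HFD the macrophage marker Cd68 had a mean log2 signal of 10.5 in WT livers, of 11.5 with the hepatocyte deletion and of 12.0 with the whole-body deletion. The median signal of the arrays was 56 to 91 over a local background of 20 to 36 intensity units, with no saturated spot. Replicate 1 of the Pparα hep-/- CTRL group stood apart, with the lowest array weight, 0.189, against up to 2.53, and its values are named where they matter. In whole liver, fewer cells that make a transcript and less transcript per cell cannot be told apart.

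Calls need a frame of reference in these livers. Of the 33323 probes, 77.2% were called in at least 1 of the 9 contrasts at an adjusted p of at most 0.05. For HFD against CTRL the called share was 18.7% in WT mice, 20.2% in the hepatocyte deletion and 24.8% in the whole-body deletion. The diet difference itself differed from that of WT mice at 10.4% of probes in Pparα hep-/- and at 14.3% in Pparα -/- mice, and between the mutants at 3.42%. On CTRL, 34.2% were called between Pparα -/- and WT, 24.7% between Pparα hep-/- and WT, and 25.2% between the mutants. On HFD the same contrasts gave 45.7%, 26.7% and 30.6%. Groups of 8 mice whose values did not overlap at all were far fewer. For diet the share of probes was 0.604% in WT mice, 0.592% with the hepatocyte deletion and 1.44% with the whole-body deletion. Between genotypes on CTRL the share was 6.16% for Pparα -/- against WT, 1.31% for Pparα hep-/- against WT and 4.43% between the mutants, and on HFD it was 6.93%, 1.45% and 6.55%.

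The 4 loci did not follow 1 pattern, as the plot of signal by mouse shows. The chromosome 17 locus was higher in both mutants, and the 8.11 kb locus on chromosome 10 was near background in Pparα -/- mice. In Pparα hep-/- mice the first probe of the 107 kb locus was low, to a different degree from mouse to mouse, while its second probe overlapped the WT range. AK035950 was also low in Pparα hep-/- mice, again to different degrees, except in replicates 1 and 2 on HFD. Where no probe is named, the 107 kb locus is given by its first probe. Each probe's signal is compared with itself across groups, since levels of different probes are not on a common scale.

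**Figure D1:**
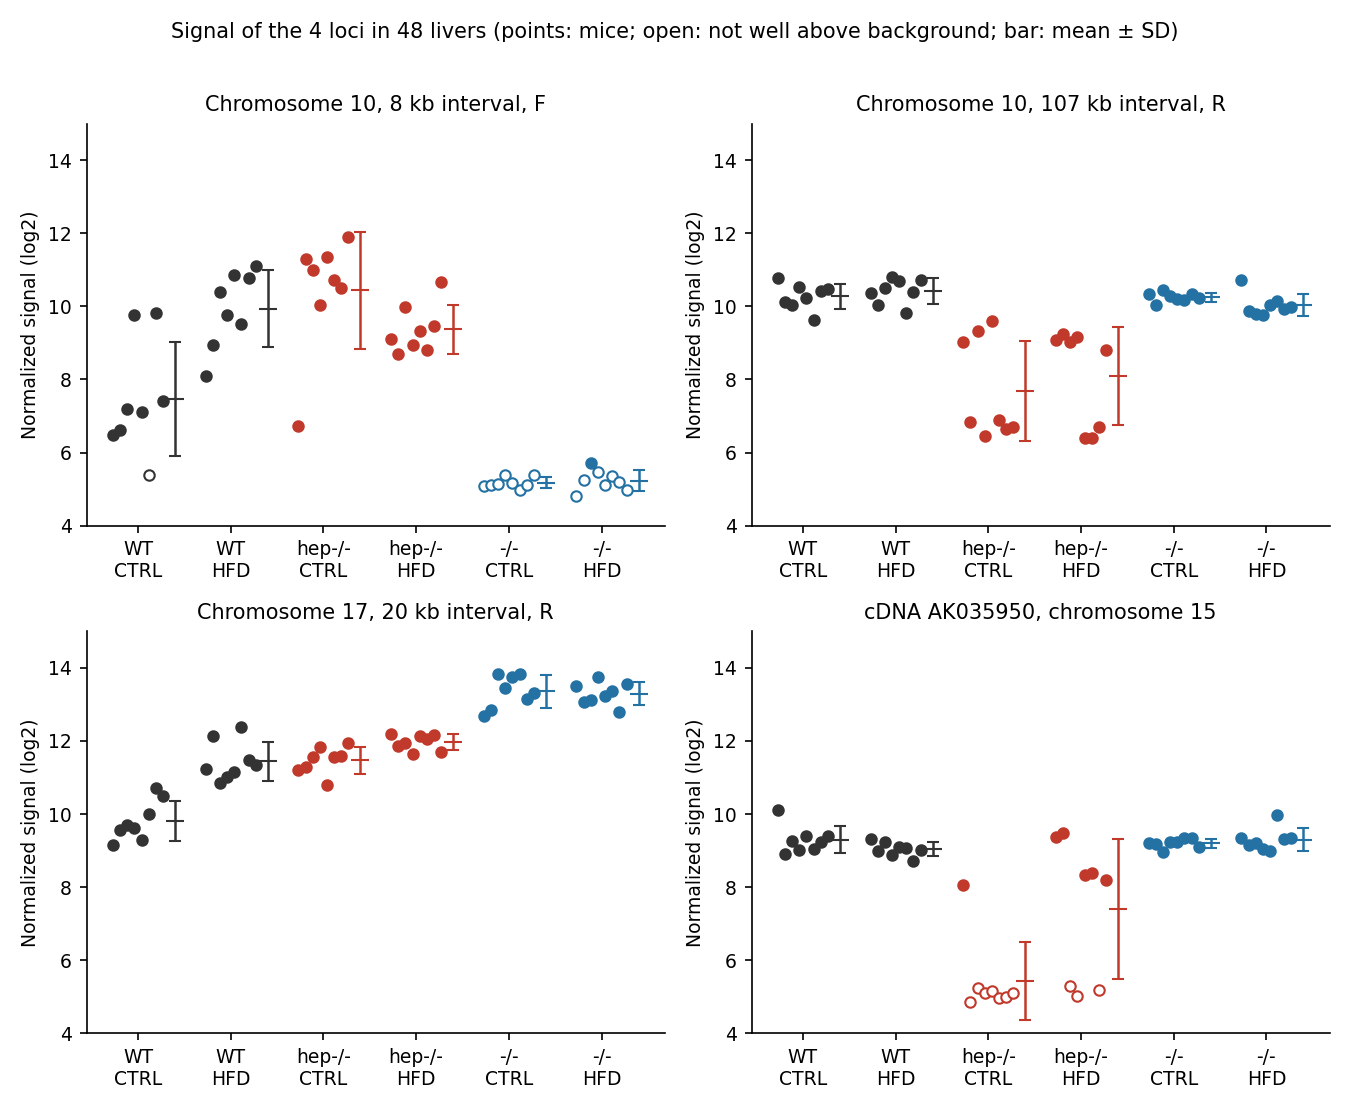
Normalized log2 signal (vertical axis) of the 4 loci in the 6 groups of 8 mice, with each point 1 mouse, open points not well above background, and bars the group mean ± SD. The chromosome 17 locus reached 12.69 to 13.84 in Pparα -/- mice on CTRL, and the Pparα hep-/- mice fell into separate levels for the first probe of the 107 kb locus, the one shown, and for AK035950.

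The chromosome 17 locus differed most evenly between genotypes. In WT mice its log2 signal was 9.16 at the lowest, 9.66 at the median and 10.70 at the highest on CTRL, and 10.85, 11.28 and 12.37 on HFD. Pparα hep-/- mice had 10.81, 11.56 and 11.94 on CTRL, and 11.65, 12.00 and 12.20 on HFD. Pparα -/- mice had 12.69, 13.38 and 13.84 on CTRL, and 12.79, 13.29 and 13.74 on HFD. The 3 genotypes were thus in separate ranges on CTRL, in the order WT, Pparα hep-/-, Pparα -/-, while on HFD the WT and Pparα hep-/- ranges overlapped and the Pparα -/- range stayed above both. Fitted differences from WT on CTRL were 3.66 ± 0.20 (log2, standard error) in Pparα -/- and 1.85 ± 0.19 in Pparα hep-/- mice. On HFD they were 1.94 ± 0.17 and 0.69 ± 0.18. HFD was higher than CTRL by 1.60 ± 0.20 in WT mice, with no overlap, and by 0.44 ± 0.17 in Pparα hep-/- mice, with overlap. The diets differed by -0.12 ± 0.18 in Pparα -/- mice. The difference between Pparα -/- and WT on CTRL was 3.81 among arrays of wash batch 1 and 3.51 among those of batch 2, the batches being the washing baths that the labels give.

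The opposite strand of the same interval gave another picture. The probe chr17:32035750-32056000_F lies at chr17:32045049-32045108, next to the probe of the R strand. It was not chosen by its values, and limma called it in 0 of 9 contrasts, with 0 at an unadjusted p under 0.05. Its fitted differences ran from -0.06 to 0.32. Pparα hep-/- mice on HFD held the highest value of this probe, 8.54 in replicate 4, against a group median of 6.14.

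The 8.11 kb locus on chromosome 10 was not well above background in any of the 8 Pparα -/- mice on CTRL and was so in 1 of 8 on HFD. Its log2 signal there ran from 4.96 to 5.40 on CTRL and from 4.81 to 5.70 on HFD, with medians of 5.13 and 5.21. Pparα hep-/- mice on CTRL had 6.72 at the lowest, 10.87 at the median and 11.89 at the highest, and the low value belonged to replicate 1, the array of lowest weight. The other 7 mice of that group began at 10.03. On HFD the Pparα hep-/- mice had 8.70, 9.22 and 10.67.

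WT mice varied widely at this locus. On CTRL their values were 5.40, 6.48, 6.62, 7.12, 7.19, 7.41, 9.76 and 9.81, so that 6 mice reached at most 7.41 and replicates 4 and 7 stood above them. In 7 of the 8 the signal was well above background. On HFD the WT mice had 8.09, 10.09 and 11.12 as lowest, median and highest. The ranges of the diets overlapped through those same CTRL mice, and HFD exceeded CTRL by 2.68 ± 0.43 in the fit. When each of the 48 arrays was left out, the difference ran from 2.44, without WT CTRL replicate 1, to 3.14, without WT CTRL replicate 4.

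The direction of the diet difference was opposite in Pparα hep-/- mice. There HFD differed from CTRL by -1.58 ± 0.37, and by -1.68 without replicate 1 of the CTRL group. The ranges overlapped, and the value was -0.36 in wash batch 1, which holds that array, against -2.33 in batch 2. The gap between the WT and Pparα hep-/- diet differences was -4.26 ± 0.57. Both were contrasts on which the locus may have been chosen, and no test is attached to them.

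Against the near-background group only bounds can be given. On CTRL the signal was at least 28.4-fold higher in Pparα hep-/- and at least 3.62-fold higher in WT than in Pparα -/- mice. On HFD the bounds were 14.6-fold for Pparα hep-/- and 21.6-fold for WT mice. Each bound sets the mean of the brighter group against the dimmest signal that was well above background on each array of the dimmer one, or the probe's own signal where that was higher, and holds for the normalization used here only. The fitted log2 differences rest on Pparα -/- signals that were mostly not well above background, so that only their direction and the bounds can be read. They were -5.75 ± 0.39 between Pparα -/- and Pparα hep-/- mice on CTRL, with no overlap, and -5.84 without replicate 1. Pparα -/- and WT mice did not overlap on HFD, where the fitted value was -5.16 ± 0.38, but their ranges touched on CTRL through WT replicate 6 alone, the array of next lowest weight (0.208), at 5.40. The next WT value was 6.48.

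The first probe of the 107 kb locus had a steady signal in WT and Pparα -/- mice. It was 9.63 at the lowest, 10.32 at the median and 10.77 at the highest in WT on CTRL, and 9.82, 10.45 and 10.82 on HFD. Pparα -/- mice had 10.05, 10.25 and 10.46 on CTRL, and 9.77, 9.96 and 10.72 on HFD. These ranges overlapped throughout.

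All 16 Pparα hep-/- mice lay below them, in levels far apart. On CTRL replicates 2, 4, 6, 7 and 8 had 6.84, 6.45, 6.89, 6.64 and 6.69, while replicates 1, 3 and 5 had 9.03, 9.32 and 9.61. On HFD replicates 5, 6 and 7 had 6.41, 6.40 and 6.70, and replicates 1, 2, 3, 4 and 8 had 9.07, 9.24, 9.02, 9.16 and 8.81. None of the 16 fell between 6.89 and 8.81. All 16 were well above background. The fitted difference from WT, an average over these levels, was -2.92 ± 0.45 on CTRL and -2.83 ± 0.41 on HFD, with no overlap on either diet.

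The levels made any diet difference depend on which mice were compared. HFD against CTRL gave 0.28 ± 0.39 over all arrays of Pparα hep-/- mice. In wash batch 1 alone it was 1.71 and in batch 2 alone -0.81, since the low mice were spread unevenly over diets and batches. Leaving out single arrays moved it between 0.06 and 0.77.

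The second probe of the same locus did not show the levels. Over the groups its medians ran from 6.94 to 7.92, and its difference between Pparα hep-/- and WT mice on CTRL was -0.56 ± 0.15, with overlap. Its values moved with the wash batch: 24 arrays of the first batch had a mean of 7.79 ± 0.34 (SD) and 24 of the second 6.97 ± 0.39. The first probe averaged 9.46 in both. The opposite-strand probe, chr10:116814196-116920696_F, lies beside the second probe, and limma called it in 0 of 9 contrasts, with 2 at an unadjusted p under 0.05 and differences from -0.22 to 0.11.

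**Figure D2:**
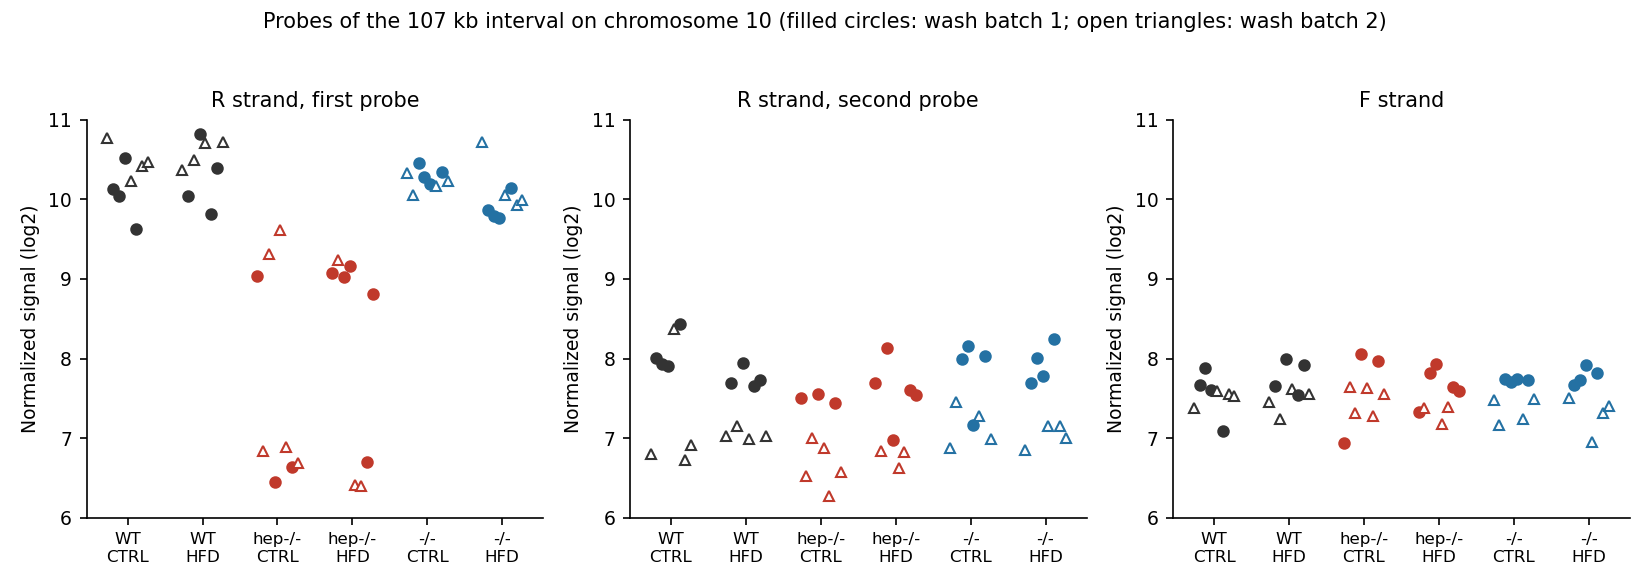
Normalized log2 signal of the 3 probes of the 107 kb interval on chromosome 10 in the 6 groups, with each symbol 1 mouse, filled circles for wash batch 1 and open triangles for wash batch 2. Levels 6.40 to 6.89 and 8.81 to 9.61 in Pparα hep-/- mice appear at the first probe, and a shift between batches at the second.

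AK035950 also left WT and Pparα -/- mice together. In WT it was 8.90 at the lowest, 9.25 at the median and 10.11 at the highest on CTRL, and 8.71, 9.05 and 9.31 on HFD. Pparα -/- mice had 8.97, 9.22 and 9.34 on CTRL, and 8.98, 9.27 and 9.99 on HFD.

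Among Pparα hep-/- mice it took 3 levels. On CTRL replicates 2 to 8 had 4.85, 5.24, 5.11, 5.17, 4.95, 4.98 and 5.09, none of them well above background, and replicate 1 had 8.06. On HFD replicates 3, 4 and 7 had 5.30, 5.03 and 5.19, also not well above background. Replicates 5, 6 and 8 had 8.34, 8.40 and 8.18, and replicates 1 and 2 had 9.37 and 9.49, above the 8.71 to 9.31 of WT mice on HFD and inside the range of WT mice on CTRL. The fitted difference from WT on CTRL, which rests on 7 arrays not well above background, was -4.30 ± 0.43, with no overlap, and -4.37 without replicate 1. As a bound, the WT signal was at least 11.4-fold and the Pparα -/- signal at least 10.7-fold higher than that of Pparα hep-/- mice on CTRL, in the same normalization. With normexp background correction the fitted difference from WT was smaller, -3.49, and from the scanner's processed signal, which subtracts background, it was larger, -7.36.

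On HFD the Pparα hep-/- range overlapped that of WT, with a difference of -1.37 ± 0.39. In Pparα hep-/- mice 1 of 8 arrays was well above background on CTRL and 5 of 8 on HFD, so no fold is given between the diets. The mice ran from 5.03 to 9.49 on HFD alone. On CTRL 7 of 8 mice and on HFD 3 of 8 mice lay below 8. The fitted diet difference, 2.57 ± 0.37 on those dim signals, was 1.48 in wash batch 1 and 3.52 in batch 2.

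The mice that were low for AK035950 and for the first probe of the 107 kb locus overlapped in part. Of the 8 Pparα hep-/- mice on CTRL, 5 were below 8 for both loci, 2 for AK035950 only and 1 for neither. On HFD 1 mouse was below 8 for both, 2 for AK035950 only, 2 for the 107 kb locus only and 3 for neither. Over the 48 arrays Pearson's r between the loci was 0.72, and 0.18 once group means and the wash batch had been subtracted. The first value includes the genotype difference that the arrays share, and both include the array's own quality.

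Among the probes most like AK035950 over the 48 arrays, many lay on its own chromosome. By r over the arrays as they are, the highest were Ankrd33b (0.92), Vps13b, a gene of vesicle transport (0.91), and 5430434G16Rik (0.90). The lowest were the EST CB209332 (-0.91), Sgk3, a kinase gene on chromosome 1 (-0.84), and Tspyl5 (-0.83). With group means and the wash batch subtracted, Ankrd33b (0.81), Vps13b (0.78) and the peptidase gene Cpq (0.77) were highest. CB209332 (-0.78), chr17:32213375-32238425_F (-0.68) and chr17:5795893-5835243_F (-0.67) were then lowest. All but Sgk3 and the latter pair are on chromosome 15, as is Ppara itself, 32.5 Mb above the AK035950 probe.

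The values of Ankrd33b and CB209332 are given for the same single Pparα hep-/- mice. Ankrd33b had 8.42 and 8.18 in replicates 1 and 2 on HFD, 7.36, 7.71 and 7.77 in replicates 5, 6 and 8, and 5.79, 5.62 and 5.94 in replicates 3, 4 and 7. In CTRL it had 7.18 in replicate 1 and 5.74 to 6.65 in the other 7 mice. CB209332 ran the opposite way, with 6.85 and 6.83 in replicates 1 and 2 on HFD, 7.59, 7.74 and 7.39 in replicates 5, 6 and 8, and 8.09, 8.43 and 8.17 in replicates 3, 4 and 7. In WT mice Ankrd33b ranged from 8.39 to 9.40 and CB209332 from 6.68 to 7.44 over both diets. Both were picked for their r with AK035950 over these arrays, so the shared levels describe that choice.

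**Figure D3:**
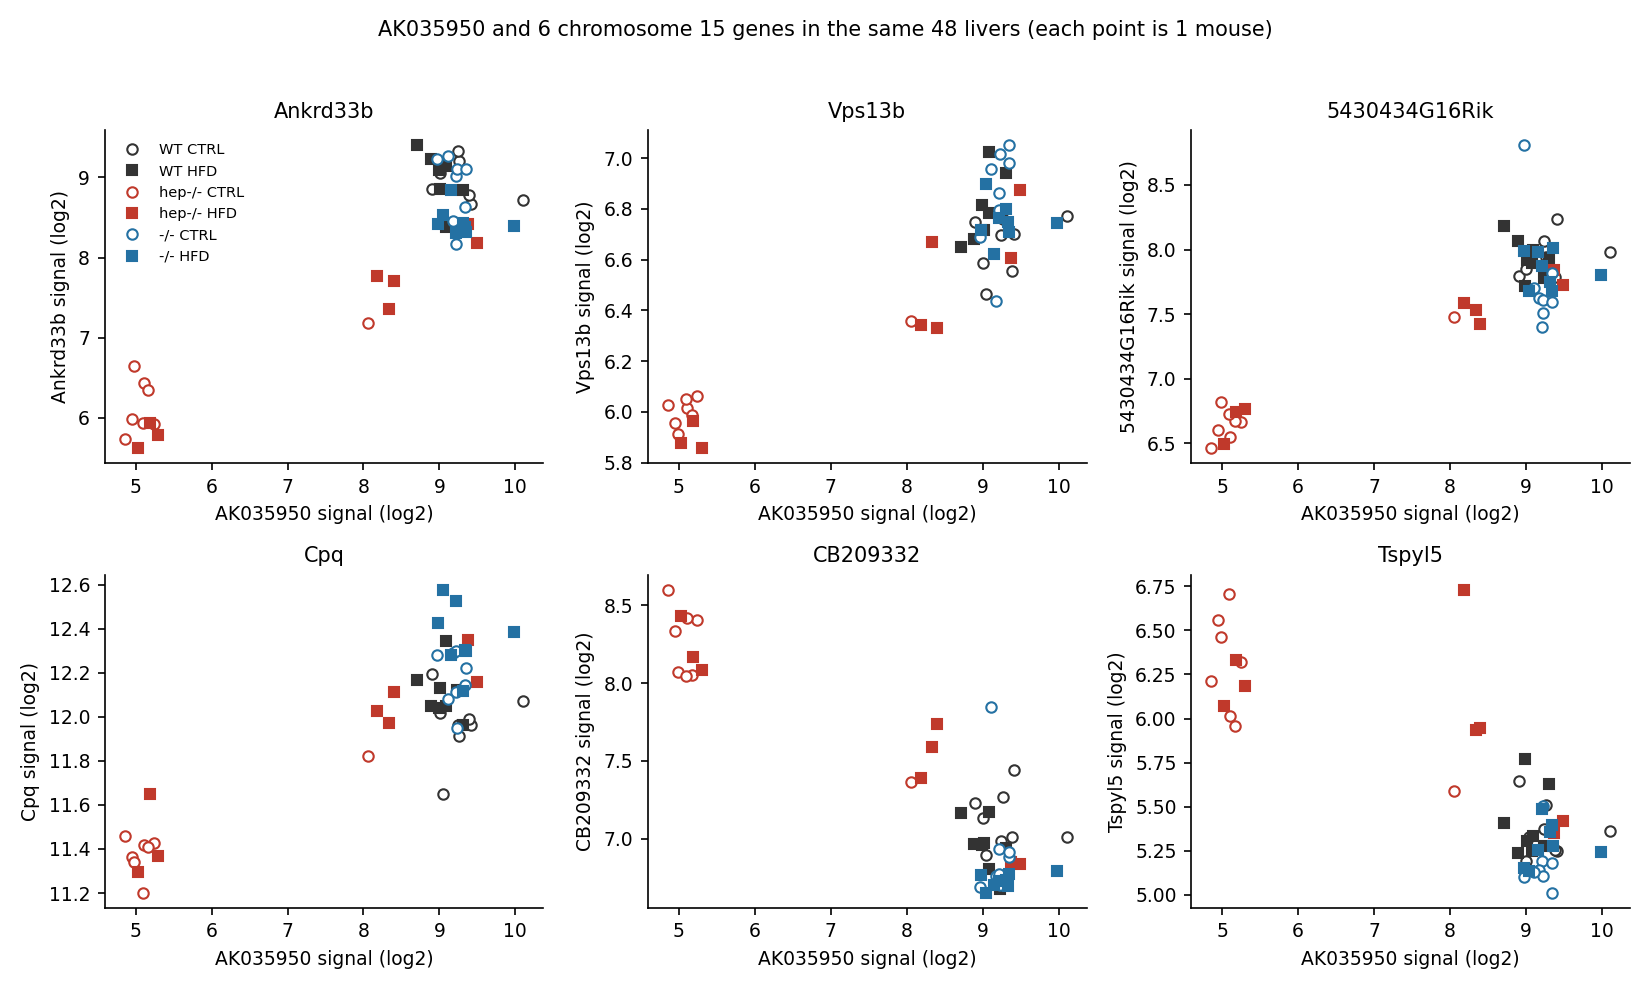
Log2 signal of 6 chromosome 15 genes (vertical axes) against that of AK035950 (horizontal axes) in 48 livers, with each point 1 mouse, colours for genotype, open circles for CTRL and filled squares for HFD. The Pparα hep-/- mice take levels of 4.85 to 5.30, 8.06 to 8.40, and 9.37 and 9.49 of AK035950, and Ankrd33b, Vps13b, 5430434G16Rik and Cpq are higher, CB209332 and Tspyl5 lower, where AK035950 is higher.

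Along the chromosome these probes stood in 1 stretch. Of the 1273 other tested probes on chromosome 15, 9 had an absolute r of at least 0.6 with AK035950 after subtraction, or 0.707%. Elsewhere, a count that takes in any probe with no position, it was 8 of 31851 probes, or 0.0251%. The 0.6 limit was set after the values had been seen. All 9 lay between 13.6 and 21.9 Mb below the AK035950 probe, 8 with positive r and CB209332 with negative r. Besides those named they were Mtdh, Dpys, a pyrimidine breakdown enzyme, Snhg18, a small nucleolar RNA host gene, and chr15:32167516-32174417_R. Of the 20 gene names with the largest absolute r, 9 were on chromosome 15, which holds 3.84% of tested probes.

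The other loci gave no such stretch. The 8.11 kb locus had 15 probes past 0.6 on chromosome 10, or 1.01% of 1482, and 285 elsewhere, or 0.901%. The chromosome 17 locus had 2 of 1605 on its own chromosome and 15 elsewhere, and the 107 kb locus had 0 on its own and 1 elsewhere. Among their 20 gene names with the largest absolute r, 0, 2 and 1 were on the locus's own chromosome. These correlations share arrays and hybridisation quality and are given as a description.

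**Figure D4:**
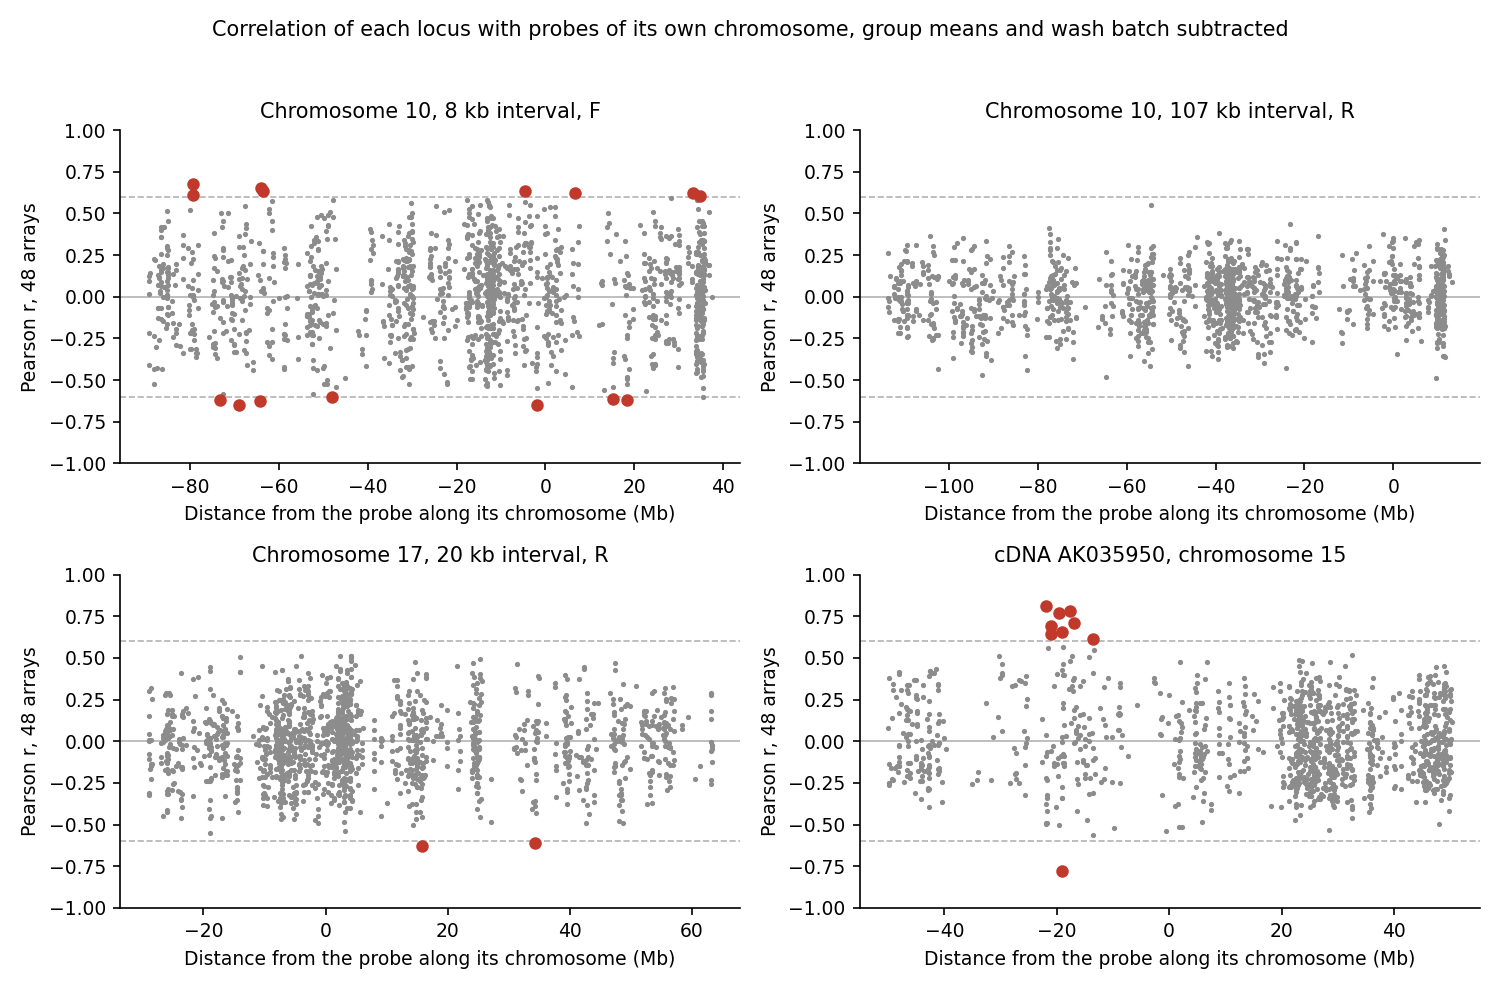
Pearson's r over 48 arrays, after group means and wash batch were subtracted, between each locus and the tested probes of its own chromosome (vertical axis) by distance from the locus in Mb (horizontal axis), with red points at an absolute r of at least 0.6. For AK035950 the 9 red points stand together 13.6 to 21.9 Mb below the probe, and for the other 3 loci they are scattered or absent.

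Genes most like the other loci were found on many chromosomes. For the 8.11 kb locus the highest r was 0.90 with Map2k7, a stress kinase gene, 0.90 with Tnfsf13os and 0.89 with Pts, a gene of tetrahydrobiopterin synthesis. The lowest was -0.88 with Ephb4, a receptor kinase gene, and with Rcc2, and -0.86 with LOC102641139. With group means and wash batch subtracted, Cyp8b1, the sterol 12-hydroxylase of bile acid synthesis, was highest (0.79), then 1110032A03Rik (0.77) and Pank1, a coenzyme A synthesis gene (0.75). Rps15a (-0.71), Cyb5r1 (-0.71) and the ribosomal protein gene Rpl6 (-0.71) were lowest.

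For the chromosome 17 locus the highest r over the arrays was 0.91 with Hmgn2 and with NAP103489-1, and 0.90 with NAP097565-001. The lowest was -0.91 with the corepressor gene Tle1 and -0.89 with Trip10 and with Nr1d2, a clock repressor gene. After subtraction G3bp2 and Mkrn1 (0.65 each) and Slc25a12 (0.62) were highest, and Ptov1 (-0.68), the phospholipase gene Pnpla8 (-0.64) and Prickle4 (-0.63) lowest.

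For the first probe of the 107 kb locus the highest were AK083375 (0.77), Ankrd33b (0.76) and Gm6524 (0.75), and the lowest Tspyl5 (-0.77), AK046569 (-0.77) and Rras (-0.74). After subtraction Crebzf (0.56), Dna2 (0.55) and Eps8l1 (0.52) were highest, and Rasl10b (-0.60), Creb3 (-0.60) and ENSMUST00000177565 (-0.59) lowest.

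Genes beside the loci were then examined, since they were not chosen by their values. Within 500 kb of the loci 89 other probes were tested, and 72 of them, or 80.9%, were called in at least 1 of the 9 contrasts, close to the 77.2% of all probes. The distance given for a gene is that of its tested probe, since the extent of the genes was not used here, and a gene may reach nearer. Their values below are from the contrast in which the locus beside them had its largest fitted difference, and since the loci were picked for such differences and the neighbours were not, the sizes are not compared. Around the 8.11 kb locus 4 of 22 probes rose and 7 fell in Pparα -/- against Pparα hep-/- mice on CTRL, within -1.58 to 0.63, where 25.2% of all probes were called. Around the 107 kb locus 0 of 29 rose and 5 fell in Pparα hep-/- against WT mice on CTRL, within -0.44 to 0.49, where 24.7% of all were called. Around the chromosome 17 locus 4 of 36 rose and 8 fell in Pparα -/- against WT mice on CTRL, within -0.49 to 0.54, where 34.2% of all were called. AK035950 had 2 tested neighbours, of which 1 fell in Pparα hep-/- against WT mice on CTRL.

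**Figure D5:**
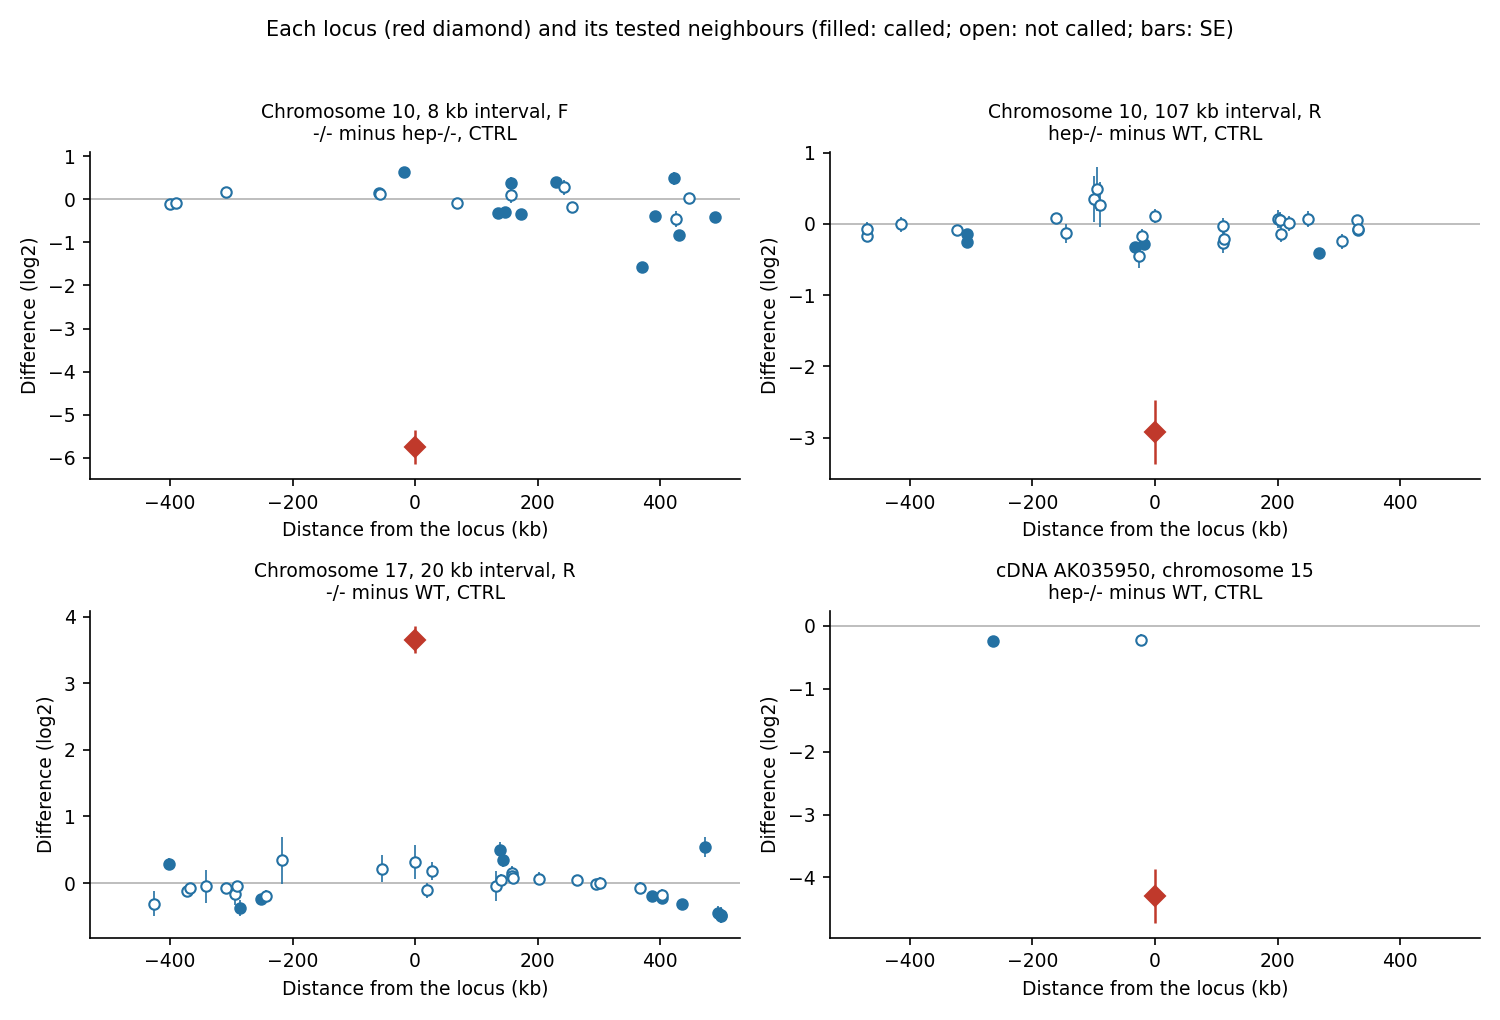
Fitted log2 difference with its standard error (vertical axis) of each locus (red diamond) and of the tested probes within 500 kb (circles, filled where called) by distance in kb (horizontal axis), in the contrast where the locus was most extreme. The neighbours lie between -1.58 and 0.63, and the loci, picked for large differences, at -5.75, -2.92, 3.66 and -4.30, of which the first and last rest on a group mostly not well above background.

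Near the 8.11 kb locus the closest tested probe was ENSMUST00000168080, 18.5 kb below. It rose by 0.95 ± 0.13 on HFD in WT mice (adjusted p = 1.38e-06, limma) and on CTRL Pparα hep-/- mice exceeded WT mice by 0.53 ± 0.12 (adjusted p = 0.00128, limma). In Pparα -/- mice, where the locus itself was near background, this neighbour was higher than in Pparα hep-/- mice by 0.63 on CTRL. On the other side the nearest named gene, the cyclin-dependent kinase gene Cdk17, 67.8 kb above, was called in 0 of 9 contrasts at that probe, and its other 3 probes, 135 to 172 kb above, were called in 4, 2 and 1. The largest fall beside a locus was that of Lta4h, leukotriene A4 hydrolase, 371 kb above, by -1.75 ± 0.09 in Pparα -/- against WT mice on CTRL (adjusted p = 6.89e-20, limma). The brighter probe of Lta4h gave -0.23, so its probes disagree in size. Also named by largest change were Nedd1, a centrosome gene, at -0.20 on HFD in Pparα hep-/- mice (adjusted p = 0.0265, limma, lost under 2 alternative settings), Hal, histidine ammonia lyase, at -0.72 on HFD in Pparα -/- mice, and chr10:92798725-92811622_F at -0.45 in Pparα hep-/- against WT mice on HFD. The last of these was called at adjusted p = 0.0419 (limma), a call that was lost under 6 alternative settings.

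Beside the 107 kb locus the nearest gene below was Cpsf6, a gene of mRNA 3' end processing, with 4 tested probes from 18.1 to 32.2 kb away. Its brightest probe differed between Pparα hep-/- and WT mice on CTRL by -0.33 ± 0.08 (adjusted p = 0.00180, limma). The nearest above, AF221104, at 111 kb, was called in 0 of 9 contrasts. Nup107, a nuclear pore gene 267 kb above, was lower in Pparα hep-/- mice by -0.41 ± 0.07 on CTRL (adjusted p = 1.69e-05, limma). The lysozyme gene Lyz2, which macrophages express, was 99.7 kb below and rose on HFD by 1.05 ± 0.28 in Pparα hep-/- and by 1.08 ± 0.30 in Pparα -/- mice (adjusted p = 0.00722 and 0.00627, limma), and Lyz1 was higher in Pparα -/- than in Pparα hep-/- mice on HFD by 0.72 (adjusted p = 0.0372, limma), a call lost under 4 alternative settings. The calls of Lyz2 on HFD were lost without array weights. Of the 4 macrophage markers (Cd68, Adgre1, Clec4f and Csf1r), 4 were called higher on HFD in Pparα -/- mice, by 0.54 to 1.17, beside 24.8% of all probes called. In Pparα hep-/- mice 2 of these markers were called higher, beside 20.2% of all probes called, and the 4 markers ranged from -0.12 to 0.69. Their part in the lysozyme values was not tested. Mdm2, the p53 ubiquitin ligase gene, was higher in Pparα -/- than in Pparα hep-/- mice on CTRL by 0.95 ± 0.11 (adjusted p = 2.66e-09, limma), and Slc35e3 rose on HFD in WT mice by 0.56.

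Beside the chromosome 17 locus the nearest tested named genes were Hsf2bp, 26.9 kb above and called in 0 of 9 contrasts, and Sik1, a salt-inducible kinase gene 54.4 kb below. Sik1 fell on HFD by -0.70 ± 0.17 in Pparα hep-/- mice (adjusted p = 0.00326, limma) and by -0.56 ± 0.20 in WT mice (adjusted p = 0.0479, limma), the latter lost under 5 alternative settings. It was higher in Pparα -/- than in Pparα hep-/- mice on HFD by 0.74. Cryaa, a small heat shock protein gene, was lower in Pparα -/- than in WT mice on HFD by -1.43 ± 0.31 (adjusted p = 0.000174, limma). Rasal3 (0.54, Pparα -/- against WT), Cbs, cystathionine beta-synthase (-0.39, Pparα hep-/- against WT), and Pde9a, a cyclic GMP phosphodiesterase gene (-0.63, Pparα -/- against Pparα hep-/-), had the largest called changes of the CTRL contrasts there, and each of these 3 calls, like that of Sik1 in Pparα hep-/- mice, was lost without array weights. The 2 tested neighbours of AK035950 were probes of the EST BU512393, 22.3 kb below, and of Ext1, a heparan sulfate polymerase gene, 265 kb below. Whether the Ext1 gene itself reaches nearer to AK035950 was not examined. Above AK035950 no probe within 500 kb was tested. Ext1 was higher in Pparα -/- than in Pparα hep-/- mice on CTRL by 0.31 ± 0.07 (adjusted p = 0.000702, limma).

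The other interval-named loci on the array are given by their counts. Of the 2120 other tested probes of this kind 62.6% were called in at least 1 contrast, beside 77.2% of all probes. On HFD in WT mice 80 rose and 102 fell, or 3.77% and 4.81%, beside 8.60% and 10.1% of all probes. In Pparα -/- against WT mice on CTRL 188 rose and 238 fell, or 8.87% and 11.2%, beside 15.6% and 18.7%. In Pparα hep-/- against WT mice on CTRL 115 rose and 168 fell, or 5.42% and 7.92%, beside 11.3% and 13.4%. Their medians in these contrasts were -0.0023, -0.03 and -0.02. A fitted difference above 2 in size was seen for 2 to 6 such probes in most contrasts, and for 1 in the diet contrast of Pparα -/- mice, among 2123 that include the 3 intervals described here.

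Named noncoding RNAs gave a comparison with transcripts of known identity. Of 41 on the list, 32 were on the array and 29 were tested. On HFD in WT mice 0 rose and 1 fell, Neat1, a scaffold of nuclear paraspeckles, by -0.80 (adjusted p = 0.00154, limma), beside 18.7% of all probes called in that contrast. In Pparα -/- against WT mice on CTRL 7 rose, or 24.1%, and 5 fell, or 17.2%, beside 15.6% and 18.7% of all probes. Meg3, a maternally expressed imprinted RNA, rose by 3.13, Snhg11 by 2.84 and Mirg by 1.28, while Snhg3 fell by 2.66 (adjusted p from 1.77e-17 to 0.00392, limma). In Pparα hep-/- against WT mice on CTRL 4 rose, or 13.8%, and 2 fell, or 6.90%, beside 11.3% and 13.4% of all probes. Among them were Snhg11 at 2.20, Meg3 at 1.56, Pvt1 at 1.09 and Neat1 at -1.03 (adjusted p at most 0.0135, limma). The medians of the list, -0.09, -0.02 and -0.02, were close to 0 in these 3 contrasts.

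PPARα target genes set the scale of the genotypes. Of 24 tested, 18 rose and 0 fell on HFD in WT mice, beside 8.60% and 10.1% of all probes, with a median of 0.67, led by the fatty acid hydroxylases Cyp4a31 (2.62), Cyp4a14 (2.56) and Cyp4a10 (2.50) and the pantetheinase Vnn1 (2.39). In Pparα -/- against WT mice on CTRL 2 rose and 16 fell, beside 15.6% and 18.7% of all, with a median of -0.54, led by Vnn1 and the hormone gene Fgf21, both at -3.57, then Cyp4a10 at -2.88 and Cyp4a31 at -2.72. In Pparα hep-/- against WT mice on CTRL 2 rose and 9 fell, beside 11.3% and 13.4% of all, with a median of -0.06, among them Fgf21 at -2.85 and Vnn1 at -2.12. The kinase gene Pdk4, at 2.69, and the thioesterase gene Acot1, at 1.82, were those that rose. Adjusted p of the genes named here was at most 0.00468 (limma).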

How the data were processed

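The authors deposited, per array, the scanner output of Agilent Feature Extraction 10.10.1.1, a spot intensity per probe that is, per the file headers, a median of pixels with no background subtraction, and a table of log2 values made from it by filtering, a correction for the bath each slide was washed in, and quantile normalization. Here the median intensity was taken to log2, outlier spots were left out and arrays were quantile normalized. A probe was kept where at least 4 of the 8 arrays in some group read it well above background. limma 3.58.1 in R fitted 6 group means and a wash batch term with weighted arrays. Benjamini-Hochberg adjustment of p ran over 33323 probes within each contrast. Calls were made at an adjusted p of at most 0.05. The precision is limited by 8 arrays a group, and nothing in the labels ties mice to cages or litters. The fit was tested on simulated data. Members, gene lists and tests were chosen with earlier results of these data known. Named genes are all members, the nearest genes and the called neighbour of largest change per contrast within 500 kb, the 3 highest and 3 lowest by Pearson's r, and up to 4 called genes per list. The limit on r, the count of 20 names, the level of 8 and each locus's leading contrast were set, and the genes past the limit on r were named, after their values were seen.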

Additional observations from a re-analysis of the deposited data

Results flagged for a closer look

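Single mice stood far from the rest of their group of 8 in 5 of the 30 sets of probe and group examined. Chance flags about 1 in 20 groups, but these sets share arrays, 2 of the 5 come from the array of lowest weight, and the probes were chosen by their values, so the count is a description. The 8.11 kb locus on chromosome 10 had 6.72 in Pparα hep-/- CTRL replicate 1. The first probe of the 107 kb locus had 10.72 in Pparα -/- HFD replicate 1. AK035950 had 9.99 in Pparα -/- HFD replicate 6, 8.06 in Pparα hep-/- CTRL replicate 1 and 10.11 in WT CTRL replicate 1.

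The diet difference (HFD minus CTRL) was compared between genotypes for the 17 named neighbour probes. These had been named for the largest called change in a contrast, the diet contrasts included, so the calls are not independent of that choice and their number is no result about the neighbours. limma called 3 of 17 for Pparα hep-/- against WT mice, 5 of 17 for Pparα -/- against WT mice and 1 of 17 between the mutants, beside 10.4%, 14.3% and 3.42% of all probes. Against WT, the diet difference in Pparα hep-/- mice was higher for Ext1 by 0.39 (adjusted p = 0.0118, limma) and for Cbs by 0.49 (adjusted p = 0.0349, limma), and for ENSMUST00000168080 it differed by -0.84 (adjusted p = 0.00126, limma). In Pparα -/- against WT mice it differed by -0.74 for Slc35e3 (adjusted p = 0.00125, limma), -0.50 for Mdm2 (adjusted p = 0.0301, limma) and -0.70 for ENSMUST00000168080 (adjusted p = 0.00460, limma). In the same comparison it was -0.95 for chr10:92798725-92811622_F (adjusted p = 0.00917, limma) and -1.77 for Cryaa (adjusted p = 0.00949, limma). Between the mutants it was -0.84 for Mdm2 (adjusted p = 0.000526, limma).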

How the results depend on the processing

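For the 4 loci, 36 differences were recomputed under other settings. Of 405 values 385 moved by less than 1 SD between mice, 19 moved further, and 1 reversed a difference of at least 1 SD. Sign changes of smaller differences were not counted as reversals. HFD against CTRL at the 107 kb locus in Pparα hep-/- mice, 0.28 over all arrays and -0.81 in wash batch 2, was such a case. From the scanner's processed signal, which subtracts background, the 8.11 kb locus differed by -8.68 between Pparα -/- and Pparα hep-/- mice on CTRL and AK035950 by -7.36 between Pparα hep-/- and WT mice, where normexp gave -3.49 for AK035950. The second probe of the 107 kb locus gave -0.56 in place of the first probe's -2.92 between Pparα hep-/- and WT mice on CTRL. Between Pparα -/- and WT mice on HFD it gave 0.073 in place of -0.53, the 1 reversal counted. The cause was not tested. Leaving out each array gave -5.95 to -5.55 for the 8.11 kb locus, -3.20 to -2.70 for the 107 kb locus, 3.52 to 3.79 for the chromosome 17 locus and -4.37 to -4.18 for AK035950, each in its leading contrast.

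Of 296 values of named neighbours and Ppara, 30 lost the call, 14 of them without array weights, and 0 reversed. A window of 250 kb left 34 of the 72 called neighbours, since it holds 43 probes. Calls among other interval loci on HFD in WT mice were 182, against 110 without array weights, 101 without a filter on dim probes and 71 at an adjusted p of 0.01. At 0.01 the counts on CTRL were 273 in place of 426 for Pparα -/- and 156 in place of 283 for Pparα hep-/- against WT mice, the latter 176 without array weights. Named noncoding RNAs called on HFD in WT mice were 2 in place of 1 from the processed signal, with a stricter filter and from the authors' values, and 3 in place of 6 at 0.01 for Pparα hep-/- against WT mice on CTRL.

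Replicate numbers were not taken to pair the arrays, since r between the deviations of same-numbered arrays ran from -0.45 to 0.69, with means of -0.03 to 0.08 by number. Of the 48 arrays, 11 correlated best with one of their own number. No chance value was computed for this count, so it does not exclude that arrays of the same number share something. With the replicate number as a block the leading differences were -5.59, -2.73, 3.54 and -4.16 in the order above. Called in at least 1 contrast with the block were 67 neighbours in place of 72, 1266 other interval loci in place of 1327, and, as without it, 25 of 29 named noncoding RNAs (86.2%) and 24 of 24 PPARα targets, where 77.2% of all probes were called without the block.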
